A study of Mus musculus with 12 samples.

Results

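Wfs1, Fibcd1, Pou3f1, Mpped1 and Man1a are genes used as markers of CA1 pyramidal cells, and their read counts were examined in the hippocampi of 12 mice. The 5 genes were taken by their symbols from the 24209 rows left after the RefSeq transcript entries of the deposited counts had been summed per mouse gene symbol, and each of them had 1 entry. All mice were male C57BL/6, were injected into both hippocampi at an age of 10 weeks with an AAV5 vector driven by the synapsin promoter, and had their hippocampi taken 10 weeks later. In the miR-9 experiment, 3 mice received GFP-miR-9sp (mice 9, 17 and 23) and 3 received GFP Ctrl (mice 2, 8 and 16). In the miR-34 experiment, 3 mice received GFP-miR-34sp (mice 3, 13 and 18) and 3 other mice received GFP Ctrl (mice 4, 8 and 10, so that mouse 8 is a different animal in each set). A sponge is a transcript with repeated, imperfectly matched binding sites for a miRNA family, which keeps the miRNA from its own targets, and GFP Ctrl is the same kind of vector with GFP and no sponge. The synapsin promoter is active in neurons, and not every neuron of the tissue carried a vector. The paper saw GFP in neurons across the hippocampus, most of all in the dentate gyrus. It gives no share of CA1 cells with a vector, so an absent difference below does not show how such cells respond. Each sponge was set against the GFP Ctrl mice of its own experiment, which asks whether inhibition of miR-9 or miR-34 changed the CA1 marker genes.

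CA1 is the last field of the classical hippocampal circuit. Its pyramidal cells receive the Schaffer collaterals of CA3 and send the output of the hippocampus to the subiculum and the cortex, and they are known for place-specific firing and for long-term potentiation. Wfs1 encodes wolframin, a membrane glycoprotein of the endoplasmic reticulum. Fibcd1 encodes a transmembrane receptor with a fibrinogen-like domain that binds acetylated groups. Pou3f1, also called Oct6, encodes a POU domain transcription factor, Mpped1 a protein with a metallophosphoesterase domain, and Man1a a Golgi mannosidase that trims N-glycans. Outside CA1, Wfs1 is known from upper layer neurons of the cortex, so reads of these genes in dissected tissue need not come from CA1 alone.

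The miRNAs that the sponges bind are shown first, because a miRNA finds its targets mainly through its seed. The mature sequences were taken from RefSeq (GRCm38.p6) and are written 5′ to 3′ with the seed, bases 2 to 8, in capitals. miR-34a-5p and miR-34b-5p share the seed, whereas that of miR-9-5p is different. The paper counts miR-34c in the miR-34 family too, but the reference used had no mature miR-34c-5p, so its sequence is not printed.
mmu-miR-9-5p: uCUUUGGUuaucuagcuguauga
mmu-miR-34a-5p: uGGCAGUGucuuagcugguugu
mmu-miR-34b-5p: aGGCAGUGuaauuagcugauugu

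The longest annotated 3′ UTR of each gene was searched on the transcript strand for an 8mer (the complement of bases 2 to 8 followed by A), a 7mer-m8 (that complement alone) and a 7mer-A1 (the complement of bases 2 to 7 followed by A). For miR-9 these are ACCAAAGA, ACCAAAG and CCAAAGA, and for miR-34 they are CACTGCCA, CACTGCC and ACTGCCA, where the shorter forms within an 8mer were not counted again. A match of miR-9 stood in 2 of the 5 genes and a match of miR-34 in 3. Of 19915 genes with an annotated 3′ UTR, 19.2% held a match of at least 7 bases for miR-9 and 19.2% for miR-34. Counted by 8mers alone, 0 of the 5 genes held one for miR-9 and 1 held one for miR-34, against 3.75% and 4.89% of all genes. These shares were not adjusted for the length of the 3′ UTR. They therefore cannot show whether the 5 genes hold more matches than other genes. A match is a description of the letters and was not tested as a binding site. The 8 matches are printed below with up to 11 bases on either side and the match in capitals, all of them in the last exon of the transcript.
Wfs1, miR-9 7mer-A1: caagcctggccCCAAAGAccctccatcac
Fibcd1, miR-9 7mer-m8, upstream: gccagacttgtACCAAAGcctgaagccac
Fibcd1, miR-9 7mer-m8, downstream: ttgtggattctACCAAAGgcctcatagct
Fibcd1, miR-34 7mer-m8, first: actggccCACTGCCcagtgccagcg
Fibcd1, miR-34 8mer: gctatcacggaCACTGCCAtcagggtctaa
Fibcd1, miR-34 7mer-m8, last: ttcagcccagcCACTGCCccagggacacc
Pou3f1, miR-34 7mer-m8: cgccctgtgccCACTGCCtgctccctatc
Man1a, miR-34 7mer-m8: attataattttCACTGCCcttagattagc

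Positions are those of mm9 (NCBIM37) with the GENCODE M1 annotation. Wfs1 lies on the minus strand of chromosome 5 from 37357343 to 37380221, and its stretch with the miR-9 match is chr5:37357783-37357811, in a 3′ UTR of 769 bases that is the shortest of the 5. Fibcd1 lies on the minus strand of chromosome 2 from 31668810 to 31701525 with a 3′ UTR of 3148 bases, the longest of the 5. It was the one gene of the 5 with matches for both miRNAs. Its miR-9 stretches are chr2:31670741-31670769 and chr2:31669628-31669656, and its miR-34 stretches are chr2:31671933-31671957, chr2:31671030-31671059 and chr2:31670174-31670202 in the order printed. Pou3f1, a gene of 1 exon, lies on the plus strand of chromosome 4 from 124334896 to 124337899, with its match at chr4:124336578-124336606. Man1a lies on the minus strand of chromosome 10 from 53624594 to 53795602, with its match at chr10:53625246-53625274. The searched transcript of Man1a has 5134 bases and its counted entry 3889, and whether that entry includes the match was not tested. Mpped1 lies on the plus strand of chromosome 15 from 83609897 to 83688924 and held no match in a 3′ UTR of 2391 bases, which belongs to a transcript annotated as subject to nonsense-mediated decay. For each gene, 0 of the 50-base stretches of 1 of its coding transcripts (for Mpped1 not the one whose 3′ UTR was searched) occurred in an annotated coding transcript of another gene.

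**Figure D1:**
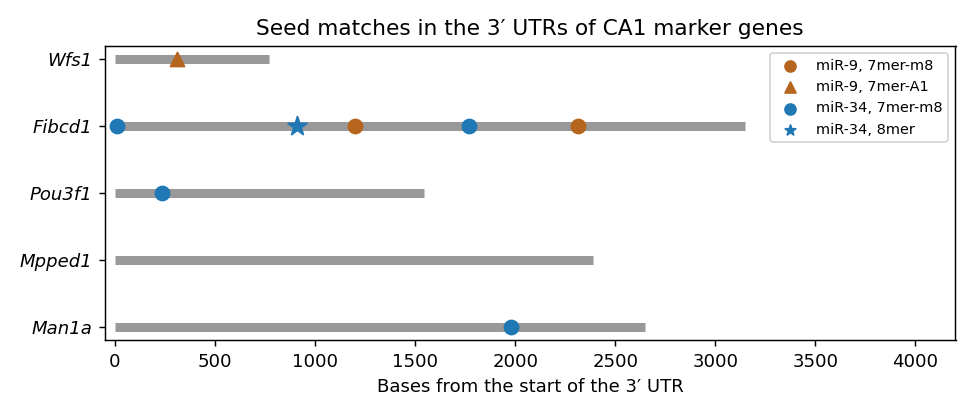
Seed matches of miR-9 (brown) and miR-34 (blue) along the longest annotated 3′ UTR of each gene (grey bars, bases from the start of the 3′ UTR on the x axis), where stars are 8mers, circles 7mer-m8 and triangles 7mer-A1 matches. Fibcd1 holds 5 of the 8 matches and Mpped1 holds 0.

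Each library of the miR-9 experiment held 17279620 to 24428477 counted reads, and those of the miR-34 experiment held fewer, 11029604 to 16934133. Levels are given as RPM, the reads of a gene per 1000000 counted reads of the mouse. At this depth the fewest reads of any of the 5 genes in any mouse were 969, for Man1a, where counting alone gives a coefficient of variation of 3.21%, and between mice of a group the biological coefficient of variation in edgeR's model was 0.0613 in the miR-9 and 0.0516 in the miR-34 experiment. The samples carry a label of hippocampal neurons, but the tissue was dissected hippocampus and glial genes were present, with astrocyte markers (Gfap, Aqp4, Aldh1l1 and Slc1a3) summing to between 1737 and 1988 RPM over the 12 mice. The words in the headers of the counts differ between the experiments (totRNA stands in those of the miR-9 experiment), and a difference in preparation cannot be told apart from the experiment. The choroid plexus markers (Ttr, Kl, Clic6, Aqp1, Kcnj13 and Tmem72, with Folr1 listed at 0 in all mice and Otx2 at 0.170 or less) varied widely between mice. They summed to 646 to 2362 RPM in the GFP Ctrl mice of the miR-34 experiment, 71.9 to 150 after GFP-miR-34sp, 123 to 744 in the GFP Ctrl mice of the miR-9 experiment and 53.5 to 881 after GFP-miR-9sp, so that GFP Ctrl mice 4 and 8 of the miR-34 experiment (1984 and 2362) lay above all other mice. The p-values compare separate mice.

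All 5 genes were well expressed. Per kilobase of transcript entry, the scale on which genes of different length can be ordered, Mpped1 had the highest mean over the 12 mice with 119 RPM per kilobase, rank 573 of 12835 genes. Wfs1 followed with 69.8 (rank 1117), Fibcd1 with 54.4 (rank 1487), Pou3f1 with 40.5 (rank 2050) and Man1a with 25.3 (rank 3275). Mpped1 lay above Wfs1 in 12 of 12 mice and their ranges did not overlap (97.9 to 146 against 46.3 to 92.4). Over the 12 mice the ranges of Wfs1 and Fibcd1 (43.8 to 61.3) overlapped. In the miR-9 experiment Wfs1 (71.9 to 92.4) lay above Fibcd1 (50.3 to 59.2) in all 6 mice, while in the miR-34 experiment their ranges overlapped. Wfs1 was above Fibcd1 in 8 of 12 mice, and the mice with the opposite order were mice 4 and 10 of GFP Ctrl and mice 3 and 13 of GFP-miR-34sp, all of the miR-34 experiment. Fibcd1 lay above Pou3f1 in 12 of 12 mice, although their ranges overlapped (34.7 to 45.4 for Pou3f1). Pou3f1 lay above Man1a (22.6 to 28.2) in 12 of 12 mice with no overlap.

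After miR-9sp injection none of the 5 genes passed the test. The edgeR log2 fold changes lay between -0.07 and 0.13, and at an adjusted p under 0.05 the number called was 0 of 5 in a comparison in which 0.0% of 13045 genes were called. At an unadjusted p under 0.05 the number was also 0 of 5, where 4.73% of all genes passed (1 of 5 without any one of the 6 mice), and with DESeq2 0 of 5, where 0.0153% passed. For all 5 genes the GFP-miR-9sp and GFP Ctrl mice overlapped, and 11.0% of all genes did not overlap.

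Wfs1 was counted at 327, 329 and 279 RPM in the GFP-miR-9sp mice 9, 17 and 23, and at 256, 294 and 316 in the GFP Ctrl mice 2, 8 and 16. The lowest sponge mouse thus lay among the GFP Ctrl mice. The means were 312 ± 28.2 and 289 ± 30.4 (SD, n = 3), and the edgeR log2 fold change was 0.13 with a 95% interval of -0.04 to 0.30 (edgeR adjusted p = 0.97). Of the 5 genes, Wfs1 had the widest interval in this comparison. Its 3′ UTR holds the 7mer-A1 match of miR-9 shown above.

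Fibcd1 gave 269, 264 and 267 RPM after GFP-miR-9sp and 281, 239 and 253 in GFP Ctrl. The sponge mice lay close together and inside the range of the GFP Ctrl mice. With its pair of 7mer-m8 matches for miR-9 the gene had a log2 fold change of 0.07 (95% interval -0.06 to 0.20, edgeR adjusted p = 0.97). Pou3f1, with 136, 124 and 129 RPM after GFP-miR-9sp and 124, 130.3 and 121 in GFP Ctrl, also overlapped between the groups. Its log2 fold change was 0.07 (95% interval -0.03 to 0.18).

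Mpped1 was counted at 464, 454 and 410.0 RPM in the GFP-miR-9sp mice and at 394, 476 and 401 in the GFP Ctrl mice, and the highest single value was that of a GFP Ctrl mouse. The log2 fold change was 0.08 (95% interval -0.07 to 0.24, edgeR adjusted p = 0.97). Man1a, with 108, 99.7 and 95.1 RPM after the sponge and 104, 108 and 110 in GFP Ctrl (109.7 in mouse 16), was the only one of the 5 with a lower mean after GFP-miR-9sp. One sponge mouse lay among the GFP Ctrl mice, and the log2 fold change was -0.07 (95% interval -0.17 to 0.04). For single genes, exact permutation tests of 3 mice against 3, which cannot give a p under 0.1, gave p from 0.3 to 0.7 over the 5 genes.

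**Figure D2:**
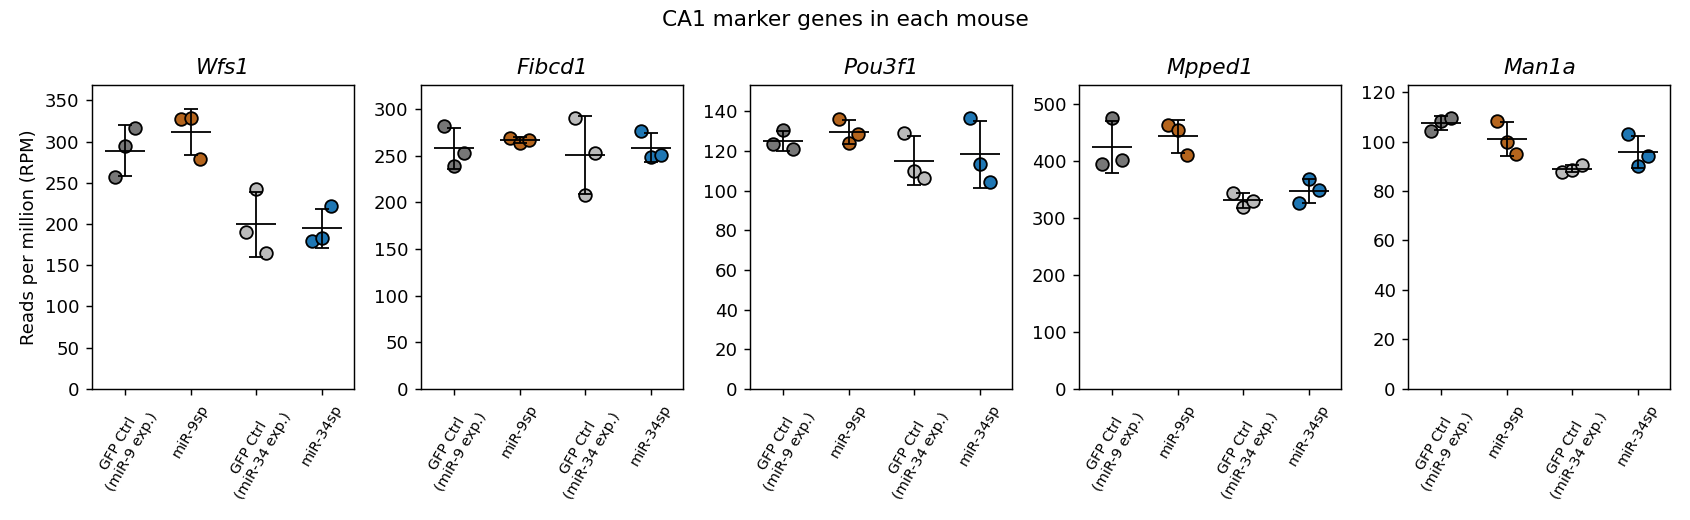
RPM (y axis, from 0) of the 5 genes in each of the 12 mice, where each point is a mouse, horizontal bars are group means and error bars are SD (n = 3 per group). Sponge and GFP Ctrl mice of the same experiment overlap for all 5 genes, and for Wfs1 and Mpped1 all mice of the miR-34 experiment lie below all mice of the miR-9 experiment. The share of all genes that separate between the experiments in this way was not counted.

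After miR-34sp injection none of the 5 genes passed the test either. The number called was 0 of 5 at an adjusted p under 0.05, where 0.064% of 12492 genes were called, and 0 of 5 at an unadjusted p under 0.05, where 6.43% passed (1 of 5 without GFP-miR-34sp mouse 3 or mouse 13). DESeq2 also gave 0 of 5, against 0.288% of all genes. The groups overlapped for all 5 genes, whereas 11.6% of all genes did not overlap. The paper reports a rise of probable miR-34 targets after this sponge only as a trend short of significance. For probable miR-9 targets after miR-9sp it reports a significant rise. The 8 genes that edgeR called in this experiment (Aqp1, Cldn2, Ecrg4, Kcnj13, Rdh5, Slc16a8, Tmem72 and Ttr) were all lower after the sponge, and they include 4 of the 6 tested choroid plexus markers.

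Man1a, which holds a 7mer-m8 match of miR-34 in a transcript longer than the counted entry, came nearest to a difference. It was counted at 103, 90.3 and 94.1 RPM in the GFP-miR-34sp mice 3, 13 and 18 and at 87.9, 88.6 and 90.7 in the GFP Ctrl mice 4, 8 and 10. Mouse 13 lay within the GFP Ctrl values and the other sponge mice above them. The means were 95.8 ± 6.59 and 89.0 ± 1.45 (SD, n = 3), and the log2 fold change was 0.10 with a 95% interval of -0.01 to 0.21 (edgeR adjusted p = 0.81).

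Fibcd1, the gene with the 8mer of miR-34, gave 276, 248 and 251 RPM after GFP-miR-34sp and 291, 208 and 253 in GFP Ctrl. All sponge mice lay between the highest and the lowest GFP Ctrl mouse. The log2 fold change was 0.04 (95% interval -0.16 to 0.24, edgeR adjusted p = 0.97). Without GFP Ctrl mouse 8, which had the lowest value, it was -0.08.

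Pou3f1, with a 7mer-m8 match, gave 137, 113 and 105 RPM after GFP-miR-34sp and 129, 110.0 and 106 in GFP Ctrl, so that both the highest and the lowest mouse were sponge mice. Its log2 fold change was 0.04 (95% interval -0.16 to 0.24). Mpped1, with no match in the 3′ UTR searched, gave 326, 368 and 349 RPM after the sponge. In GFP Ctrl it gave 344, 319 and 329, with the sponge mouse 3 among the GFP Ctrl mice. Its log2 fold change was 0.07 (95% interval -0.04 to 0.18).

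Wfs1, which has no match of miR-34 either, gave 179, 183 and 222 RPM in the GFP-miR-34sp mice and 191, 243 and 165 in the GFP Ctrl mice. Here too the sponge mice lay inside the range of the GFP Ctrl mice, whose coefficient of variation of 19.9% was the highest of the 5 genes in that group. The log2 fold change was -0.04 (95% interval -0.30 to 0.23, edgeR adjusted p = 0.98), and 0.13 without GFP Ctrl mouse 8. Exact permutation tests gave p from 0.2 to 0.9 over the 5 genes, with 0.1 as the smallest p possible.

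A further criterion, that of the methods, an unadjusted p under 0.05 in an unpaired two-sided comparison with a ratio of means above 1.2 or below the inverse of 1.2, was passed by 0 of the 5 genes in either experiment. Over all detected genes 1.44% passed after miR-9sp and 2.0% after miR-34sp. The ratios of the 5 genes were 0.941 to 1.08 after miR-9sp and 0.977 to 1.08 after miR-34sp, so the lowest and the highest lay inside both limits.

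Whether the sponges acted differently on the 5 genes was tested in 1 model of the 12 mice. The difference between the log2 fold changes (miR-34sp minus miR-9sp) passed at an adjusted p under 0.05 for 0 of 5 genes, with 0.0% of 12835 genes called and 0.039% in DESeq2. At an unadjusted p under 0.05 it was 1 of 5, where 6.1% of all genes passed. That gene was Man1a, with a difference of 0.16 (95% interval 0.007 to 0.319, edgeR adjusted p = 0.80), whose mean was lower after miR-9sp and higher after miR-34sp. Man1a did not pass the unadjusted limit with DESeq2 (unadjusted p = 0.0501). With edgeR the pass was lost without some single mice, such as GFP-miR-34sp mouse 3 (edgeR unadjusted p = 0.127), and kept without others. For Wfs1 the difference was -0.17 (edgeR adjusted p = 0.90), and for Fibcd1, Pou3f1 and Mpped1 it lay between -0.04 and -0.02.

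The larger differences lay between the experiments. GFP Ctrl mice carried the same kind of vector in both, and Wfs1, Mpped1 and Man1a were lower in the GFP Ctrl mice of the miR-34 than of the miR-9 experiment, while Fibcd1 and Pou3f1 did not pass the test. The count of 3 of 5 genes called, all lower, has to be read against 25.2% of 12878 genes called between the same mice and 11.7% called lower. The same 3 genes passed an unadjusted p under 0.05, where 36.9% of all genes passed, and DESeq2's adjusted limit, where 19.6% passed. By scaling to total counts alone, the split over all genes moved from 1735 higher and 1508 lower to 1375 higher and 2403 lower, and the 3 genes remained lower and called. Experiment, animals and preparation cannot be told apart here, and in bulk tissue fewer cells of a type and less RNA per cell cannot be told apart either.

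Wfs1 fell from 289 ± 30.4 to 199.5 ± 39.8 RPM (SD, n = 3), a log2 fold change of -0.49 with a 95% interval of -0.75 to -0.22 and an edgeR adjusted p of 0.014. The highest GFP Ctrl mouse of the miR-34 experiment (243) was below the lowest of the miR-9 experiment (256). This call rested on single mice, since without GFP Ctrl mouse 4 of the miR-34 experiment the log2 fold change was -0.45 (edgeR adjusted p = 0.052) and without mouse 16 of the miR-9 experiment -0.41 (edgeR adjusted p = 0.063).

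Mpped1 fell from 424 ± 45.3 to 331 ± 12.5 RPM (SD, n = 3), with a log2 fold change of -0.31 (95% interval -0.45 to -0.16, edgeR adjusted p = 0.0076). Man1a fell from 107 ± 2.80 to 89.0 ± 1.45 (SD, n = 3), with a log2 fold change of -0.22 (95% interval -0.30 to -0.13, edgeR adjusted p = 0.0024). It had the smallest spread within the sets and the smallest adjusted p of the 5. For all 3 the GFP Ctrl sets did not overlap (exact permutation p = 0.1, the smallest possible with 3 against 3), which was also the case for 43.4% of all genes, 28.5% with the miR-34 experiment lower.

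Fibcd1 was at 258 ± 21.5 and 251 ± 41.6 RPM in the GFP Ctrl mice of the miR-9 and the miR-34 experiment (SD, n = 3). Its log2 fold change was 0.01 (95% interval -0.21 to 0.23, edgeR adjusted p = 0.96), which became -0.04 when scaled to total counts alone. Pou3f1 was at 125 ± 4.84 and 115 ± 12.3 (SD, n = 3), with a log2 fold change of -0.07 (edgeR adjusted p = 0.50). When the sponge mice are placed beside the GFP Ctrl mice, all 6 mice of the miR-34 experiment lay below all 6 of the miR-9 experiment for Wfs1 (165 to 243 against 256 to 329) and Mpped1 (319 to 368 against 394 to 476). For Man1a the experiments overlapped (87.9 to 103 against 95.1 to 109.7). The share of all genes that separate between the experiments over all 12 mice was not counted. Between the GFP Ctrl sets alone, 28.5% of 12878 genes did not overlap with the miR-34 experiment lower.

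**Figure D3:**
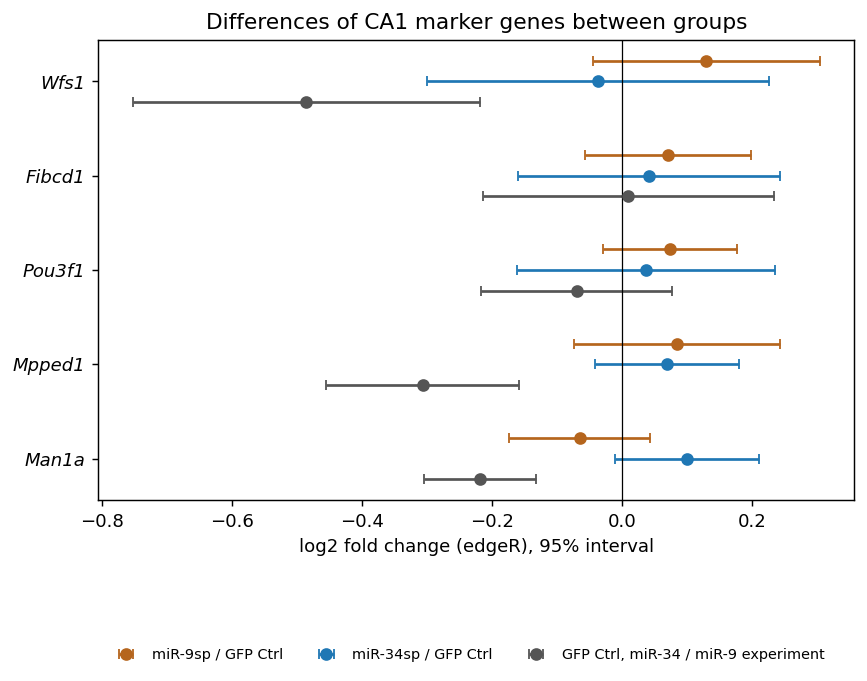
The edgeR log2 fold change of each gene (x axis) after miR-9sp (brown), after miR-34sp (blue) and between the GFP Ctrl mice of the miR-34 and the miR-9 experiment (grey), with 95% intervals as bars. The sponge comparisons share GFP Ctrl mice with the comparison of the sets, all intervals of the sponges include 0, and those of Wfs1, Mpped1 and Man1a between the sets do not.

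Other genes used as CA1 markers moved in both directions between the GFP Ctrl sets. Of 6 such genes tested, 2 rose and 2 fell at an adjusted p under 0.05, where 25.2% of 12878 genes were called and 11.7% called lower. The median log2 fold change of the 6 genes was 0.17, against -0.22 over the 5 genes and -0.01 over all genes tested. Lefty1, a secreted antagonist of Nodal signalling, was higher by 0.73 on the log2 scale (edgeR adjusted p = 0.0017), and Spink8, a Kazal type protease inhibitor, by 0.53 (edgeR adjusted p = 0.0075). The secreted matrix protein Ccn3 (formerly Nov) was lower, with a log2 fold change of -0.40 (edgeR adjusted p = 0.0014), as was the orphan receptor Gpr161, with -0.32 (edgeR adjusted p = 0.021). Dcn and Itpka had log2 fold changes of 0.27 and 0.08 and did not pass.

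After the sponges these 6 genes were not called (edgeR, 0 of 6 after miR-9sp and 0 of 6 after miR-34sp, with 1 and 0 at an unadjusted p under 0.05). Over all genes tested, 0.0% and 0.064% were called, and 4.73% and 6.43% passed the unadjusted limit. The median log2 fold changes of the 6 genes were 0.12 after miR-9sp and 0.02 after miR-34sp, beside 0.07 and 0.04 over the 5 genes and 0.00 over all genes tested in either experiment. The gene past the unadjusted limit was Itpka, a kinase of inositol trisphosphate in dendritic spines, at 222 ± 12.1 RPM after GFP-miR-9sp and 199 ± 7.12 in GFP Ctrl (SD, n = 3), a log2 fold change of 0.18 with an edgeR adjusted p of 0.97.

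Genes known from neighbouring tissue were counted between the same GFP Ctrl sets, where 25.2% of all genes were called. Of 5 neocortex markers 3 were called, all lower in the miR-34 experiment, namely Cux2 (-0.70), Fezf2 (-0.36) and Tshz2 (-0.87 on the log2 scale). The 5 markers summed to 290.2 to 388 RPM in the GFP Ctrl mice of the miR-9 experiment and to 189, 249 and 184 in mice 4, 8 and 10 of the miR-34 experiment. After the sponges the sums were 286 to 372 for miR-9sp and 190.1 to 231 for miR-34sp, so the experiments did not overlap, and no marker of this list was at 0. Of the thalamus list, 1 of 4 tested genes was called, Slc17a6 with a log2 fold change of -1.0, while Tcf7l2 and Lef1 were at 0.104 RPM or less in every mouse. Of the striatum list 0 of 5 tested genes were called (1 at an unadjusted p under 0.05), and Drd1 and Sh3rf2 were at 0.116 or less. The part of neighbouring tissue in the differences of Wfs1, Mpped1 and Man1a was not tested.

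The calls in the other lists have to be read against the same 25.2% of all genes. In the GFP Ctrl mice of the miR-34 experiment, CA3 genes had a median log2 fold change of 0.37, with Bok and Grik4 called among 4, dentate granule cell genes had a median of 0.30, with Dsp called among 8 (Npnt was listed at 0 in every mouse), and of 4 tested CA2 genes Rgs14 was called as higher. Ociad2 was called as higher among 5 genes of excitatory neurons, which had a median of 0.07. Nts of the subiculum list (1 of 2) and Sst and Vip of the interneuron list (2 of 6) were called as lower. Of the choroid plexus list 5 of 6 tested genes were called as higher (Ttr, Kl, Aqp1, Kcnj13 and Tmem72). Gfap was called as higher among 4 astrocyte genes, P2ry12 and Csf1r as lower and Aif1 as higher among 4 microglia genes, and 0 of 3 oligodendrocyte genes and 0 of 2 endothelial genes were called by edgeR (1 and 0 at an unadjusted p under 0.05). Whether these genes and the 5 CA1 genes changed for one reason was not tested.

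**Figure D4:**
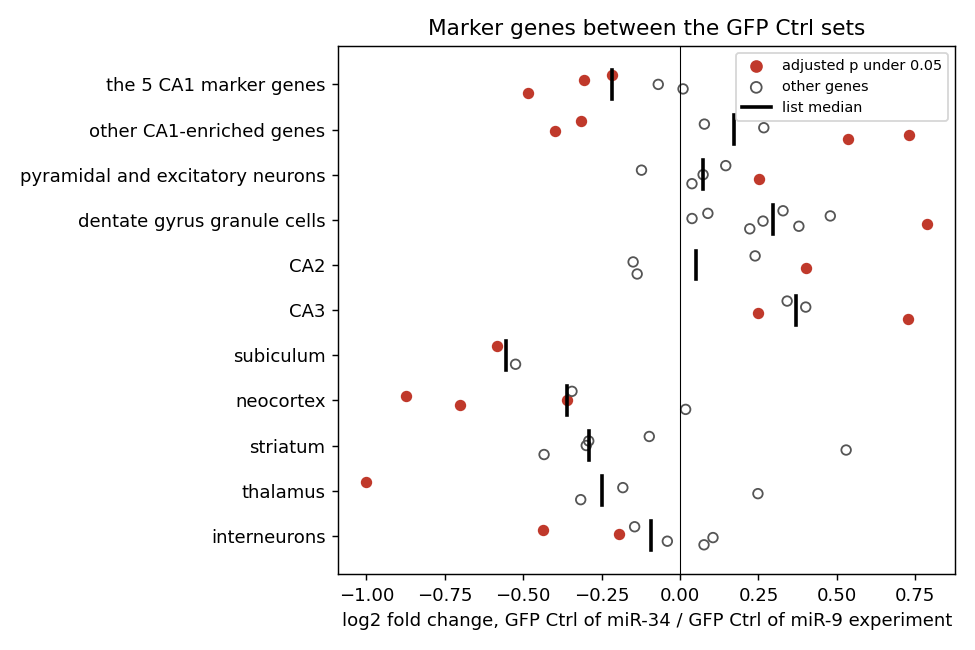
Log2 fold change between the GFP Ctrl mice of the miR-34 and the miR-9 experiment (x axis) of the genes in each marker list (rows), where each circle is a gene, filled red where the edgeR adjusted p was under 0.05, and black bars are list medians. The median of the 5 CA1 marker genes was -0.22, that of the other CA1 genes 0.17, of the neocortex genes -0.36 and of the CA3 genes 0.37.

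Related genes were examined because the 5 genes belong to families. Wfs1 has no close paralog. Among 7 tested paralogs of the others, 0 were called for either sponge (edgeR, 0 at an unadjusted p under 0.05 in both). Of all genes, edgeR called 0.0% for the miR-9 sponge and 0.064% for the miR-34 sponge. The unadjusted limit was passed by 4.73% and 6.43%. Between the GFP Ctrl sets Pou3f2 (-0.25, edgeR adjusted p = 0.031) and Man1c1 (-0.27, edgeR adjusted p = 0.0033) were lower. These 2 calls among 7 paralogs stand beside 25.2% of 12878 genes called between the same sets, and 11.7% called lower. Pou3f3, the most abundant relative of Pou3f1, was at 143 to 148 RPM in the 4 group means, and Pou3f4 was at 3.81 or less in every mouse. The Golgi mannosidase Man1a2 was more abundant per kilobase than Man1a, with 31.8 RPM per kilobase against 25.3, and Man1b1 had 33.4. Mpped2 was at 1.99 to 4.69 RPM in every mouse, far below Mpped1, and Fcna and Fcnb were at 0.316 or less.

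Whether the 5 genes varied together from mouse to mouse was examined next. Their log2(RPM + 1) values, centred on the mean of each experiment, were correlated over the 12 mice for the 10 pairs of genes, and 0 pairs passed after Benjamini-Hochberg adjustment. The most negative pair was Wfs1 and Fibcd1 with a Pearson's r of -0.564 (permutation p = 0.0601, adjusted 0.301) and a Spearman's rho of -0.476 (permutation p = 0.121, adjusted 0.604). Within the experiments r was -0.354 for miR-9 (exact permutation p = 0.497) and -0.642 for miR-34 (exact permutation p = 0.217). Without the 2 mice farthest from the median of Wfs1 it was -0.224. Without GFP Ctrl mouse 8 of the miR-34 experiment alone it was -0.203, and without any other single mouse it lay between -0.644 and -0.513. The size of the relation thus rested on that 1 mouse. GFP Ctrl mouse 8 of the miR-34 experiment had the highest Wfs1 and the lowest Fibcd1 of that experiment. The same mouse had the highest sums of its experiment for the lists of neocortex (249 RPM), thalamus (117), striatum (32.8), dentate granule cells (636), choroid plexus (2362), interneurons (1288), astrocytes (1988), microglia (321) and endothelium (165), and the part of these in its values was not tested.

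The most positive pair was Fibcd1 and Pou3f1 with an r of 0.538 (permutation p = 0.055, adjusted 0.301) and a rho of 0.587 (permutation p = 0.0495, adjusted 0.495). Within the experiments r was -0.0448 for miR-9 (exact permutation p = 0.881) and 0.649 for miR-34 (exact permutation p = 0.108), and 0.432 without the 2 mice farthest from the median of Fibcd1, so the relation did not hold within the miR-9 experiment. The other 8 pairs had r between -0.21 and 0.336, with adjusted p of 0.921 for each in the permutation test.

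**Figure D5:**
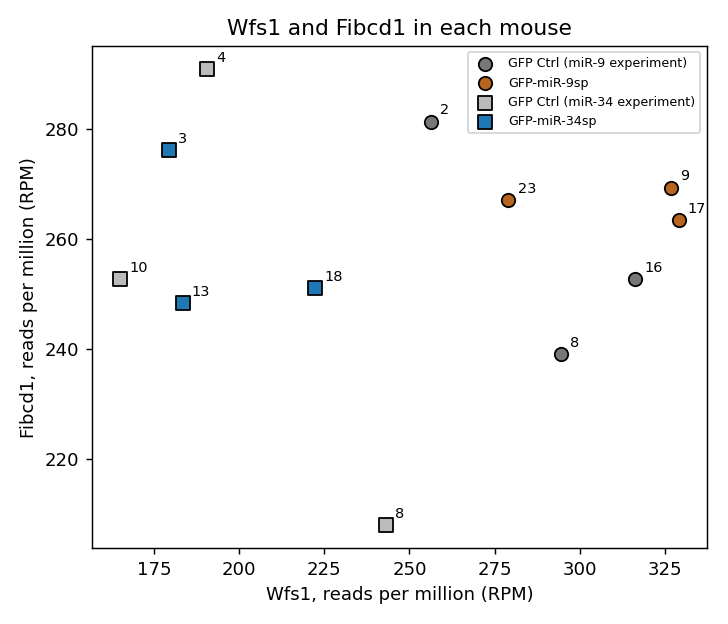
Wfs1 (x axis) and Fibcd1 (y axis) in RPM, where each point is one of the 12 mice with its animal number, circles are the miR-9 and squares the miR-34 experiment. Neither axis starts at 0, the mice of the experiments separate along Wfs1 and not along Fibcd1, and GFP Ctrl mouse 8 of the miR-34 experiment lies apart with 243 and 208 RPM.

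The genes whose centred values were most like each of the 5 over the 12 mice were found by Pearson's r among 9238 genes with a mean above 100 reads, and are given as a description without a test. They were Bche (0.928), Trabd2b (0.897) and Sil1 (0.875) for Wfs1, and Tmco6 (0.906), Aatf (0.87) and Wdr20 (0.855) for Fibcd1. For Pou3f1 they were Plekha1 (0.91), Mfsd14a (0.905) and Sptssa (0.901), for Mpped1 Kcnc2 (0.917), Vopp1 (0.883) and Sacm1l (0.869), and for Man1a Hnrnpl (0.915), Atp6ap1 (0.912) and Csnk1g3 (0.899). These were chosen as the highest values among all genes searched, and genes of a mouse share its library and depth. Within the miR-9 and the miR-34 experiment, r was 0.247 and 0.964 for Mfsd14a, and 0.451 and 0.944 for Aatf. The remaining genes named had an r of 0.652 or more within each experiment. None of the 5 genes was among the genes named for another of them, and the nearest was Pou3f1, which ranked 551 of 9237 genes by likeness to Fibcd1.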

How the data were processed

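RNA from the hippocampi of 12 mice was sequenced as 50 bp single end reads. The deposited values are raw counts of reads per RefSeq transcript entry, made by the authors, with entry lengths in bases beside them. The methods name mm9 and the labels mm10 with STAR, and the sources disagree on the build. The counting tool is not given in the sources used here. Of 32850 entries 98.7% were joined to a symbol and summed per symbol. One GFP Ctrl set is labelled with the miR-34 experiment, and the remaining 3 GFP Ctrl mice were taken as those of miR-9, since each experiment had 3 by the methods.

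Genes with a mean above 10 scaled reads were fitted in each comparison with edgeR 4.0.16 (R 4.3.3; quasi-likelihood test, TMM) and Benjamini-Hochberg adjustment over all genes, with a limit of 0.05. RPM are counts per 1000000 counts of the mouse. Correlations used a pseudocount of 1 and permutation tests of 100000 resamples, or exact ones within an experiment (scipy 1.17.1). Seed matches were read from the genome and GENCODE M1. Alternatives were DESeq2 1.42.0, other size factors, filters and entries, 1 model of 12 mice, the criterion of the methods and leaving out each mouse. The code was tested on simulated data.

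The 5 genes and all marker lists were chosen with earlier results of these data known. All 5 genes, all other CA1 genes, the paralogs, marker genes with an adjusted p under 0.05 and the 3 genes most like each of the 5 are named. Some genes of the list of other CA1 genes are not reported here, and its counts and medians leave them out. Counting errors do not cover PCR copies.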

Additional observations from a re-analysis of the deposited data

How the results depend on the processing

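The number of the 5 genes called stayed at 0 after miR-9sp, at 0 after miR-34sp and at 0 for the difference between the sponges under every alternative run, and no log2 fold change after miR-9sp changed sign, although leaving out a mouse moved it from 0.05 to 0.20 for Wfs1, 0.02 to 0.14 for Fibcd1, 0.04 to 0.12 for Pou3f1, 0.03 to 0.18 for Mpped1 and -0.12 to -0.03 for Man1a. Between the GFP Ctrl sets it was 3 in all alternatives but those without mouse 4 of the miR-34 or mouse 16 of the miR-9 experiment, where Wfs1 was lost (2 to 3 over the mice left out, log2 fold change of Wfs1 -0.65 to -0.36). By 8mers alone, the genes with a match were 0 for miR-9 and 1 for miR-34. Scaling to total counts gave a log2 fold change of -0.042 for Fibcd1 between the GFP Ctrl sets and 0.00957 for Mpped1 in the difference between the sponges. Centring on each group gave an r of 0.114 for Wfs1 and Man1a. Leaving out each mouse in turn changed signs of the following values, and the causes were not tested. After miR-34sp the log2 fold change then ranged from -0.16 to 0.13 for Wfs1, from -0.075 to 0.16 for Fibcd1 and from -0.070 to 0.13 for Pou3f1, and between the GFP Ctrl sets from -0.10 to 0.13 for Fibcd1. The difference between the sponges ranged from -0.15 to 0.088 for Fibcd1, from -0.15 to 0.049 for Pou3f1 and from -0.11 to 0.036 for Mpped1. The r ranged from -0.00733 to 0.502 for Wfs1 and Mpped1, from -0.17 to 0.173 for Wfs1 and Man1a, from -0.435 to 0.152 for Fibcd1 and Mpped1, from -0.174 to 0.315 for Fibcd1 and Man1a, from -0.213 to 0.545 for Pou3f1 and Man1a and from -0.117 to 0.239 for Mpped1 and Man1a. Over all genes, edgeR called 8 after miR-34sp, DESeq2 36, edgeR with DESeq2's size factors, with total counts or with separate entries 4, with over 10 reads in every mouse 1, with at least 1 read 81 and in 1 model of 12 mice 0. Without GFP Ctrl mouse 10 it was 57, and without any other mouse of that experiment 0 or 1. After miR-9sp the number was 0 by edgeR and 2 by DESeq2 or with at least 1 read, and for the difference between the sponges 0, with 5 by DESeq2 and 4 with at least 1 read (0 to 1 in both when a mouse was left out). After miR-9sp, 322 genes rose and 295 fell at an unadjusted p under 0.05, and 189 and 484 with total counts. With at least 969 reads of each of the 5 genes in each mouse, counting alone gave a coefficient of variation of at most 3.21%. No paired analysis was possible because sponge and GFP Ctrl mice of an experiment share no animal number.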
